A study of Rattus norvegicus with 6 samples.

Results

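Interferon-stimulated genes were examined in rat pancreas with acute pancreatitis (AP). The set was a list of 44 genes: 27 effectors of the type I interferon response, 3 RNA sensors, 5 STAT and IRF transcription factors and 9 targets of interferon gamma. A gene entered through a non-control array probe whose RefSeq accession belongs to that gene. Of the 44 genes, 39 had such a probe, out of 13903 genes with a named probe on the array. Of these 39, 32 gave enough signal to be tested, out of 8732 genes tested.

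The AP animals were male rats aged 6 weeks that received 1 mL/kg of 4% sodium taurocholate, a bile salt, into the pancreatic duct against the direction of flow, and their pancreas was taken 9 h later. The control animals were male rats of the same age, and the labels name no treatment for them, not even a sham operation. The labels give neither a strain nor any allele for either group. Whole pancreas was measured on 1-colour arrays, so fewer cells of a type and less RNA per cell cannot be told apart. Each group had 3 deposited scans, but scans 2 and 3 of each group were readings of 1 array, and each group is therefore 2 arrays in every value below.

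Interferons are secreted proteins that warn neighbouring cells of infection. Type I interferons act through the receptor subunits Ifnar1 and Ifnar2 and the kinases Jak1 and Tyk2, which activate a complex holding Stat2 and Irf9 that binds the interferon-stimulated response element (ISRE). Interferon gamma acts through Ifngr1, Ifngr2, Jak1 and Jak2, and its signal reaches promoters at the gamma-activated site (GAS). The genes switched on encode proteins that block viral replication, chemokines that draw T cells, and the machinery that loads peptides on MHC class I. In experimental pancreatitis, taurocholate injures acinar cells, and immune cells then enter the gland.

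The level of a gene is given as the log2 signal of its probe minus the 75th percentile of all probes of that array, so 0 is the level of a fairly bright probe. Levels of different genes come from different probes and are not compared with each other. A gene changed where the adjusted p of limma's moderated test, with the Benjamini-Hochberg correction taken over every probe in the fit, was below 0.05. The arrays themselves differed before scaling: the 75th percentile lay 0.96 lower on the AP arrays on the log2 scale, and 10905 to 11367 probes were well above background on the AP scans, against 13039 to 15388 on the control scans. The arrays sat in 4 positions of 1 slide, with the AP arrays beside each other at one end, so position and group cannot be told apart. Directions follow the deposited labels. On the arrays labelled AP, 3 of 5 tested markers of neutrophils, the cells known to enter the gland in pancreatitis, were lower than on the control arrays, and 7 of 8 markers of T cells and 5 of 5 of B and plasma cells were higher, with the values given further on.

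Most of the interferon-stimulated genes that changed were lower in AP. Of the 32 tested genes, 5 were higher in AP (Usp18, Mx2, Ifitm1, Irf1 and Tap2), 15 were lower and 12 did not pass the threshold, but without scaling between arrays the values of Usp18, Mx2, Ifitm1 and Irf1 turned negative. Over all genes tested, 56.0% changed, 24.1% were higher and 31.9% were lower, against 62.5%, 15.6% and 46.9% of these 32. Changes of more than 2-fold were higher for 1 of the 32 genes, 3.12%, and lower for 12 of them, 37.5%, against 12.1% and 19.2% of all genes tested. Both sets of shares use the fitted values and not the bounds. The 12 include Rsad2, Isg15, Bst2, Ifih1 and Cxcl11, which were at background on every AP scan. For Ifih1 the bound is 1.79-fold, so a change of more than 2-fold is not shown. The median log2 fold change was -0.39 over the 32 genes and -0.03 over all genes, and single genes ran from -5.20 (Rsad2) to 1.16 (Tap2). The AP arrays and the control arrays did not overlap for 26 of the 32 genes, 81.2%, which is close to the 79.9% seen over all genes. The mean level of the 32 genes was 0.17 and 0.29 on the AP arrays, against 1.06 and 1.04 on the control arrays. Over all genes tested it was 0.17 and 0.19 on the AP arrays, against 0.34 and 0.31 on the control arrays. Of the 32 genes, 5 were well above background on control scans only and were kept through that group. Their background readings pull the AP means down. Among the 24 of the 32 genes well above background on all 6 scans, 5 were higher and 9 were lower, 37.5%, where 58.7% of all genes detected that well changed, 28.0% were higher and 30.7% were lower. Where a call is given without 1 array, that group has 1 array left, which is assumed to vary as the arrays of the other group do, with 1 residual degree of freedom.

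**Figure D1:**
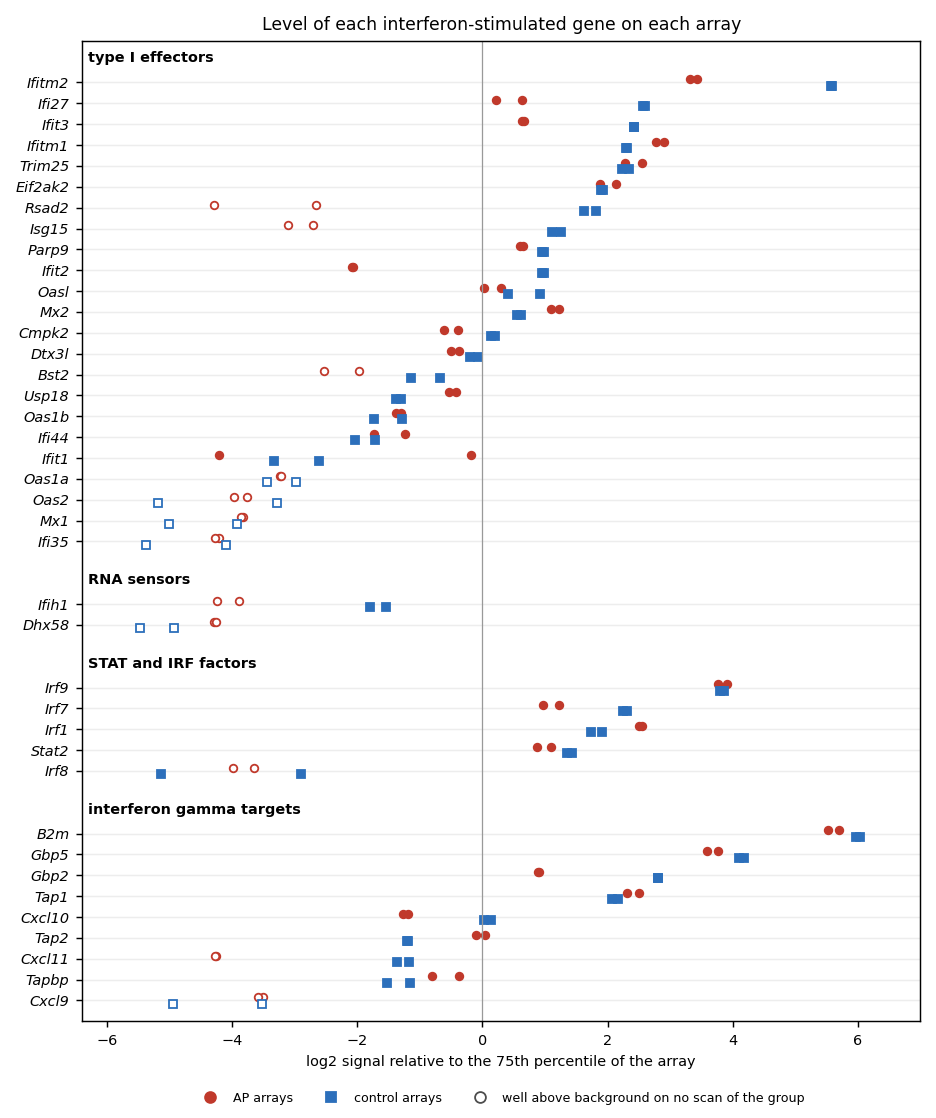
Level of each of the 39 genes with a probe, in log2 signal relative to the 75th percentile of the array, with circles for the 2 AP arrays and squares for the 2 control arrays, in the 4 classes. Open symbols mark genes well above background on no scan of that group. Rsad2 and Isg15 show the widest separation, and the arrays of both groups overlap for Trim25, Eif2ak2 and Irf9.

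**Figure D2:**
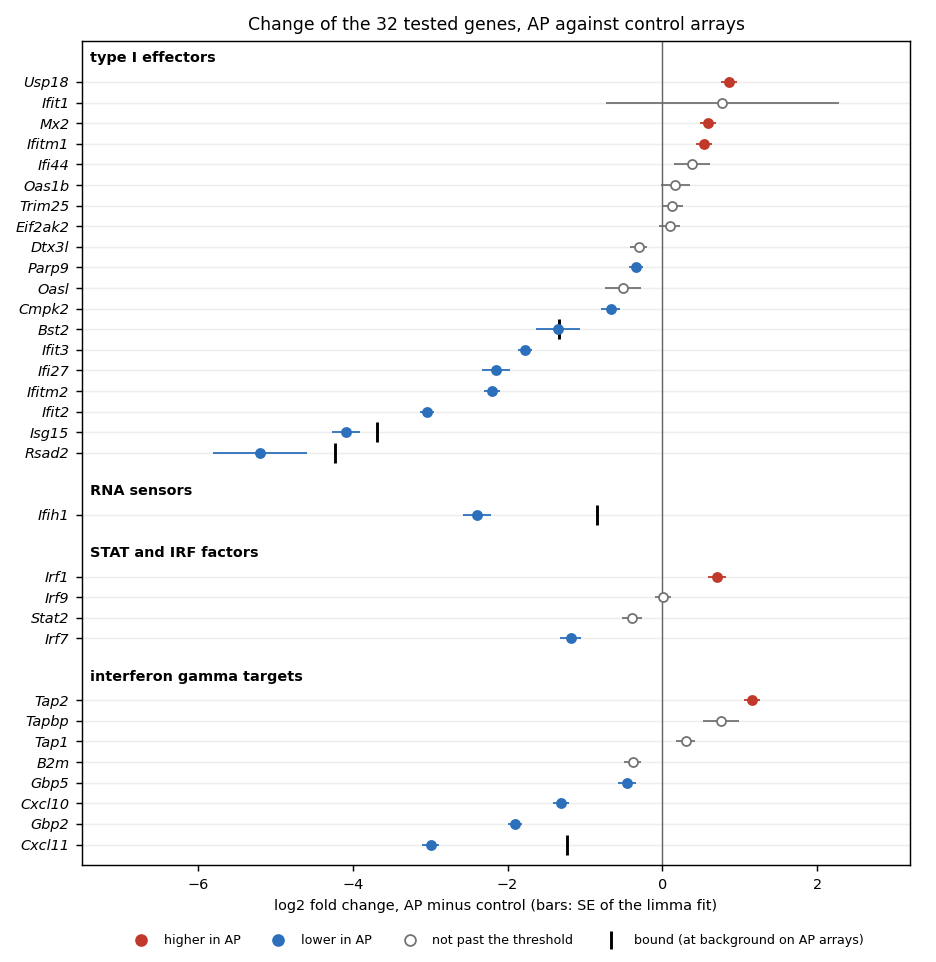
Log2 fold change, AP minus control, of the 32 tested genes by class, with the SE of the limma fit as bars. Vertical ticks mark the bound for the 5 genes at background on the AP arrays. Filled symbols passed the threshold, 5 of them to the right of 0 and 15 to the left.

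Promoter sequences are shown for 12 genes because they hold the ISRE letters and stand for genes that were lower (Rsad2, Ifit3, Ifitm2, Bst2, Ifih1, Irf7, Gbp2 and Cxcl10), higher (Tap2) or not past the threshold (Oas1b, Tap1 and B2m). They come from RefSeq on the rat assembly GRCr8, and each reads 5′ to 3′ along the gene's own strand. Capitals mark the ISRE letters, GAAA with any 2 bases before the next GAAA, or the reverse complement, TTTC with any 2 bases before the next TTTC, and the signed number is the position of the first capital relative to the start of the gene. Where 2 matches overlap, both are in capitals.
Rsad2, chr6:48788243-48788282, minus strand, position -147: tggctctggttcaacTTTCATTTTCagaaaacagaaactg
Ifit3, chr1:241527267-241527306, plus strand, position -44: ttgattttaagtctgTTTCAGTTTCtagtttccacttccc
Ifitm2, chr1:205482357-205482396, minus strand, position -33: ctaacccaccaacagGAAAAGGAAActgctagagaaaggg
Bst2, chr16:18255068-18255113, minus strand, position -131: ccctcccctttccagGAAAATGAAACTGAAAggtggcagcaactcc
Ifih1, chr3:67684003-67684042, minus strand, position -59: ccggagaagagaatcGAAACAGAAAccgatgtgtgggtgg
Irf7, chr1:205800068-205800107, minus strand, position -69: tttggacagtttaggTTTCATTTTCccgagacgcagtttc
Gbp2, chr2:234005681-234005720, plus strand, position -31: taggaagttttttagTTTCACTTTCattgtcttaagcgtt
Cxcl10, chr14:15988816-15988847, plus strand, position -243: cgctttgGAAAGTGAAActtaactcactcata
Tap2, chr20:4652313-4652352, minus strand, position -41: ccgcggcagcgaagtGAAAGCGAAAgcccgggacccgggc
Oas1b, chr12:41395881-41395926, minus strand, position -59: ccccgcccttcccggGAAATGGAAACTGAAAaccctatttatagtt
Tap1, chr20:4668640-4668679, minus strand, position -121: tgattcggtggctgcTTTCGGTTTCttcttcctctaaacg
B2m, chr3:129549165-129549204, plus strand, position -150: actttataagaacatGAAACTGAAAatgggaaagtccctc

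The genes share these letters whether or not they changed. Of the 44 genes, 35 had a promoter window from 250 bases before the start to 50 after it, and 23 of the 35, 65.7%, held the ISRE letters on either strand, against 3.77% of 27457 rat promoters. The match began at or after position -150 in 22 of the 23 genes, and 6 genes held more than 1 match. By outcome, the letters were present in 10 of the 13 windows of genes lower in AP, in 1 of 2 windows of higher genes and in 7 of 11 windows of genes not past the threshold. The shorter GAS letters TTCNNNGAA, which read the same on both strands, were in 10 of the 35 windows, 28.6%, against 8.68% of all promoters. By class, the ISRE letters were in 14 of 20 windows of type I effectors, 7 of 9 windows of gamma targets and 1 of 5 windows of STAT and IRF factors, and 3 of those 5 held GAS letters, among them Irf1 at position -142 and Irf9 at -99. In Bst2 the GAS letters overlap the ISRE letters. A match is a run of letters and not a measured binding site.

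**Figure D3:**
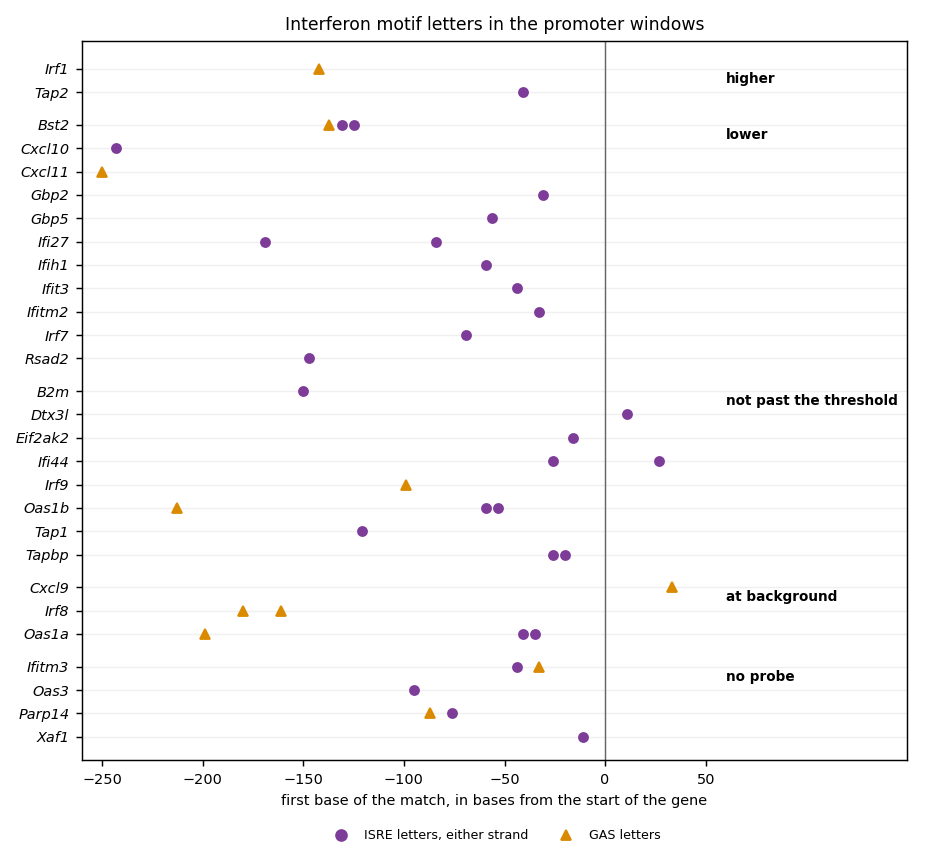
Position of the first base of each match, in bases from the start of the gene, for the 28 genes whose window holds ISRE letters (circles) or GAS letters (triangles), grouped by how the gene changed in AP. All genes with circles have one at or after position -150 except Cxcl10, at -243, and the genes lower in AP hold them in 10 of 13 windows.

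Among the type I effectors, 19 of 27 were tested, 3 of which were higher in AP, 9 lower and 7 not past the threshold, with a median log2 fold change of -0.34. The largest decreases were in Rsad2, Isg15 and Ifit2. Rsad2 encodes viperin, an enzyme that makes a chain-terminating nucleotide against viral polymerases. Its level was -2.66 and -4.29 on the AP arrays, against 1.63 and 1.82 on the control arrays. It was well above background on no AP scan, so the change is a bound, at least 18.7-fold lower, with an adjusted p of 0.00595 in the limma fit, and the size depended on the background correction: with normexp the log2 fold change was -1.89, smaller than this bound. Isg15, a ubiquitin-like protein that is joined to other proteins, had a level of -3.11 and -2.71 on the AP arrays, against 1.11 and 1.25 on the control arrays. It too was at background on every AP scan, at least 12.9-fold lower, with an adjusted p of 0.000969 by limma, and at -1.27 on the log2 scale with normexp, again smaller than the bound. Both genes were well above background on all 3 control scans, and the AP arrays lay below the control arrays by more than any spread within a group.

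The Ifit proteins bind foreign RNA and block its translation. Ifit2 had a level of -2.08 and -2.07 on the AP arrays, against 0.98 and 0.95 on the control arrays, 8.22-fold lower with an adjusted p of 0.000688 by limma. It was well above background on 1 AP scan and on all control scans, and its log2 fold change was -1.18 with normexp. Ifit3 had a level of 0.64 and 0.67 on the AP arrays, against 2.43 and 2.42 on the control arrays, 3.41-fold lower (adjusted p 0.00123, limma). For both genes the arrays within a group nearly coincided and the groups lay far apart. Ifit1 did not follow them. Its level was -4.21 and -0.18 on the AP arrays, against -2.62 and -3.33 on the control arrays, so the AP arrays lay on both sides of the control arrays (log2 fold change 0.77 ± 1.51 SE, adjusted p 0.694 by limma). The high value was seen in both scans of the second AP array, at -0.14 and -0.22. Ifit1 was well above background on those 2 AP scans and on 1 control scan, and its log2 fold change was 2.79 without the first AP array and -1.24 without the second.

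The Ifitm proteins sit in membranes and hinder the fusion of viruses, and 2 members of the family moved in opposite directions under the scaling used. Ifitm2 had a level of 3.32 and 3.43 on the AP arrays, against 5.56 and 5.59 on the control arrays, 4.59-fold lower (adjusted p 0.001, limma). Ifitm1 had a level of 2.90 and 2.78 on the AP arrays, against 2.30 and 2.31 on the control arrays, 1.45-fold higher (adjusted p 0.0182, limma), and its value was -0.42 without scaling. The call for Ifitm1 was lost without either control array or without the first AP array, with adjusted p between 0.0701 and 0.0803 by limma, while its log2 fold change stayed between 0.47 and 0.60 over the 4 omissions. Ifi27, a small membrane protein strongly induced by type I interferon, was also lower, 4.45-fold, with levels of 0.64 and 0.22 on the AP arrays, against 2.56 and 2.60 on the control arrays (adjusted p 0.00299, limma).

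Other effectors changed less. Bst2 encodes tetherin, which holds budding viruses at the cell surface. Its level was -2.54 and -1.98 on the AP arrays, against -0.68 and -1.14 on the control arrays, at least 2.53-fold lower (adjusted p 0.0229, limma), but 0.07 on the log2 scale with normexp. Cmpk2, a mitochondrial nucleotide kinase that neighbours Rsad2 in mammalian genomes, was 1.59-fold lower (adjusted p 0.0174), and Parp9, an ADP-ribosyltransferase family member, was 1.27-fold lower (adjusted p 0.0461). These 3 calls were lost when single arrays were left out: Bst2 without either control array or the first AP array (adjusted p up to 0.0926, limma), Cmpk2 without either control array or the second AP array (up to 0.0875), and Parp9 without any of the 4 arrays (up to 0.152). Over the 4 omissions the log2 fold changes ran from -1.63 to -1.07 for Bst2, from -0.78 to -0.56 for Cmpk2 and from -0.37 to -0.31 for Parp9, and the call for Parp9 was lost in 11 of 17 alternative settings. Dtx3l, the ubiquitin ligase that partners Parp9, had a log2 fold change of -0.31 ± 0.11 SE, with an adjusted p of 0.0906 by limma.

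Usp18 and Mx2 were higher in AP relative to the other probes. Usp18 removes Isg15 from proteins and damps signalling at the type I receptor. Its level was -0.54 and -0.42 on the AP arrays, against -1.39 and -1.30 on the control arrays, 1.82-fold higher (adjusted p 0.00666, limma), and -0.09 on the log2 scale without scaling. Mx2, a dynamin-like GTPase of the interferon response, had a level of 1.10 and 1.23 on the AP arrays, against 0.55 and 0.61 on the control arrays (log2 fold change 0.58 ± 0.10 SE, adjusted p 0.0159 by limma). Without scaling the value of Mx2 was -0.37, and its call was lost without either control array or the second AP array, with adjusted p between 0.0664 and 0.0735 by limma and log2 fold changes of 0.52 to 0.65 over the 4 omissions. Its relative Mx1 was well above background on no scan.

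The remaining tested effectors did not pass the threshold. Oasl, a member of the oligoadenylate synthetase family, had levels of 0.02 and 0.30 on the AP arrays, against 0.93 and 0.41 on the control arrays (adjusted p 0.147, limma). Oas1b, another family member, had levels of -1.30 and -1.38 on the AP arrays, against -1.29 and -1.73 on the control arrays (adjusted p 0.499, limma). Eif2ak2, the kinase PKR that halts translation on double-stranded RNA, had a log2 fold change of 0.09 ± 0.13 SE (adjusted p 0.586, limma). Trim25, a ubiquitin ligase that acts on RIG-I, had 0.13 ± 0.14 SE, and Ifi44 had 0.39 ± 0.23 SE, with adjusted p of 0.476 and 0.234 by limma. Ifi44 was well above background on 2 AP scans and on all 3 control scans. Oas1a, Oas2 and Ifi35 were at background on every scan, and Oas3, Ifitm3, Xaf1 and Parp14 had no probe that was matched.

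Of the RNA sensors, which recognise viral RNA in the cytoplasm, 1 of 3 could be tested. Ifih1 encodes MDA5, the sensor of long double-stranded RNA. Its level was -4.24 and -3.88 on the AP arrays, against -1.79 and -1.54 on the control arrays. It was at background on every AP scan and well above it on all 3 control scans, at least 1.79-fold lower (adjusted p 0.00253, limma), but with another background correction (normexp) its log2 fold change was 0.06. Dhx58, which encodes LGP2, was at background on all scans, and Ddx58, which encodes RIG-I, had no matched probe.

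The STAT and IRF factors did not move as a block: of the 4 tested, Irf1 was higher, Irf7 was lower, and Stat2 and Irf9 did not pass the threshold. Irf7 is the factor that amplifies type I interferon production. Its level was 0.96 and 1.22 on the AP arrays, against 2.24 and 2.31 on the control arrays, 2.27-fold lower (adjusted p 0.00546, limma). Irf1, which is induced early by interferon gamma and by inflammatory signals, had a level of 2.54 and 2.51 on the AP arrays, against 1.73 and 1.91 on the control arrays. It was 1.63-fold higher (adjusted p 0.012, limma), with a value of -0.25 on the log2 scale without scaling. The call for Irf1 was lost without the first control array or without either AP array, with adjusted p between 0.0515 and 0.0558 by limma, while its log2 fold change stayed between 0.61 and 0.79 over the 4 omissions. Stat2 had levels of 0.88 and 1.10 on the AP arrays, against 1.43 and 1.34 on the control arrays (adjusted p 0.0654, limma). Irf9, the DNA-binding partner of Stat2, had levels of 3.76 and 3.91 on the AP arrays, against 3.86 and 3.79 on the control arrays, and these overlapped (log2 fold change 0.01 ± 0.11 SE). Irf8 was well above background on 1 control scan and on no AP scan, and was not tested.

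Among the interferon gamma targets, 8 of 9 were tested, and none of the 8 had overlapping groups, where 79.9% of all genes had none; Tap2 was higher in AP, and Gbp2, Gbp5, Cxcl10 and Cxcl11 were lower. The guanylate-binding proteins are GTPases that attack intracellular microbes. Gbp2 had a level of 0.88 and 0.91 on the AP arrays, against 2.80 and 2.80 on the control arrays, 3.75-fold lower (adjusted p 0.00108, limma). Gbp5 had a level of 3.59 and 3.76 on the AP arrays, against 4.18 and 4.10 on the control arrays, 1.38-fold lower (adjusted p 0.0366, limma). Both moved the same way, but leaving out any of the 4 arrays ended the call for Gbp5, with adjusted p between 0.0625 and 0.133 by limma and log2 fold changes between -0.55 and -0.37.

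Cxcl9, Cxcl10 and Cxcl11 are the chemokines that draw T cells through the receptor Cxcr3. Cxcl10 had a level of -1.27 and -1.18 on the AP arrays, against 0.14 and 0.03 on the control arrays, 2.48-fold lower (adjusted p 0.00276, limma). Cxcl11 had a level of -4.25 and -4.27 on the AP arrays, at background on every scan, against -1.36 and -1.18 on the control arrays, at least 2.36-fold lower (adjusted p 0.000807, limma). Cxcl9 was at background on all scans. With the normexp background correction neither Cxcl10 nor Cxcl11 passed the threshold, with adjusted p of 0.249 and 0.743 by limma.

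Of 4 genes of MHC class I peptide loading, Tap2 passed the threshold as higher and Tap1, Tapbp and B2m did not pass. Tap1 and Tap2 form the pump that carries peptides into the endoplasmic reticulum. Tap2 had a level of 0.03 and -0.10 on the AP arrays, against -1.20 and -1.18 on the control arrays, 2.23-fold higher (adjusted p 0.00342, limma), and was the only one of the 5 higher genes with a positive value, 0.20, without scaling, where it no longer passed the threshold. Tap1 had levels of 2.51 and 2.32 on the AP arrays, against 2.07 and 2.16 on the control arrays (log2 fold change 0.30 ± 0.12 SE, adjusted p 0.11 by limma), and its value was -0.66 without scaling. Tapbp, tapasin, which bridges the pump to class I molecules, had levels of -0.37 and -0.80 on the AP arrays, against -1.53 and -1.15 on the control arrays (adjusted p 0.0579, limma). B2m, the light chain of class I, had levels of 5.69 and 5.53 on the AP arrays, against 5.97 and 6.03 on the control arrays (log2 fold change -0.39 ± 0.11 SE, adjusted p 0.0512 by limma). A second probe for B2m, with 10 spots, gave -0.29 with an adjusted p of 0.0972 by limma.

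Scaling decided the direction of the smaller changes. Without scaling between arrays, the median log2 fold change of all probes was -0.88. None of the 32 genes then passed the threshold as higher by limma (0 at an unadjusted p below 0.05), and 25 passed as lower. Of all 13220 probes tested, 8564 passed without scaling, and only 768 of these as higher, so most called probes were lower too. Without scaling, Usp18, Mx2, Ifitm1 and Irf1 had negative values. With the authors' deposited normalized values, 6 genes were higher and 15 lower. With the normexp background none of the 5 higher genes passed the threshold, at log2 fold changes of 0.45 for Usp18, 0.18 for Mx2, 0.14 for Ifitm1, 0.35 for Irf1 and 0.50 for Tap2, and Ifit1 alone passed as higher, at 0.73 (adjusted p 0.0407, limma). Dropping the scaling lowers every gene by the same amount. All 15 genes lower under the 75th percentile scaling were therefore bound to have negative values without it. Of these, 8 (Gbp2, Ifi27, Ifit2, Ifit3, Ifitm2, Irf7, Isg15 and Rsad2) passed the threshold as lower in every one of the 17 alternative settings that measured them; Isg15, Ifit2 and Rsad2 drop out where a probe must be well above background on all scans.

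**Figure D4:**
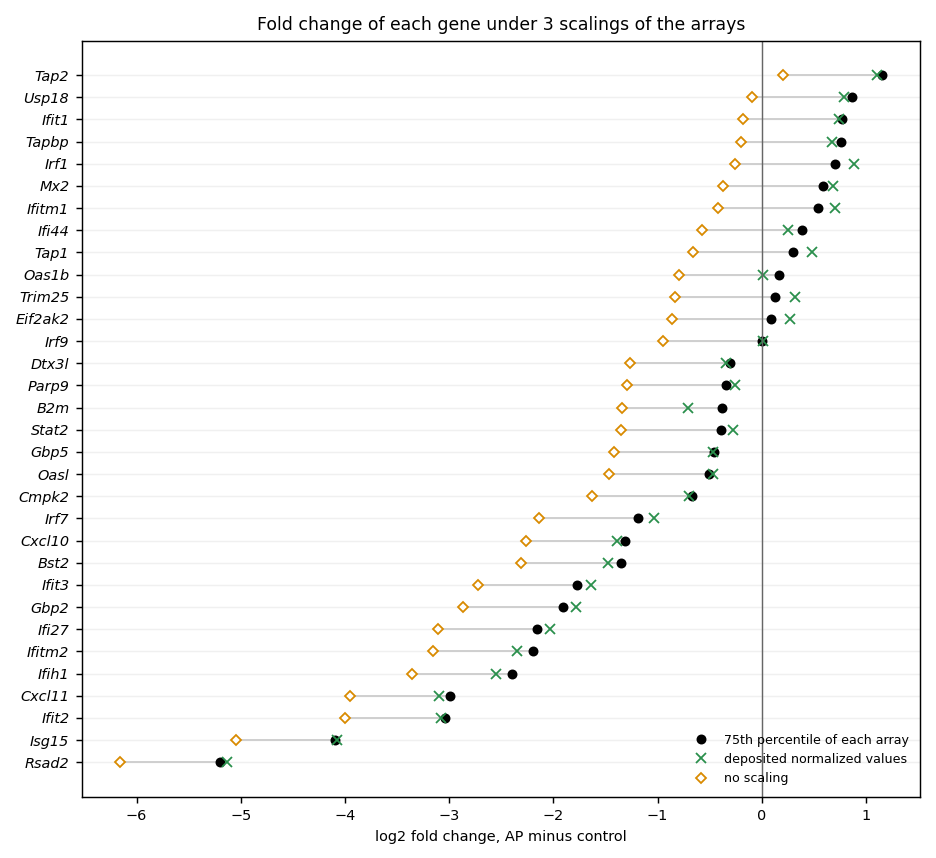
Log2 fold change, AP minus control, of the 32 tested genes under 3 scalings: the 75th percentile of each array (circles), the deposited normalized values (crosses) and no scaling (open diamonds). The diamonds lie to the left of the circles for every gene. Of the 32 genes, 12 cross 0, among them Usp18, Mx2, Ifitm1 and Irf1, while Rsad2, Isg15 and Ifit2 stay far below it.

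The wider pathway was described with 81 further genes, of which 44 were tested: 18 were higher in AP, 17 were lower and 9 did not pass the threshold, while without scaling 4 were higher and 26 lower, and with normexp 6 were higher and 9 lower. Of the 44, 40.9% were higher and 38.6% were lower, against 24.1% and 31.9% of all genes tested. The same shares of all genes stand beside the smaller lists below. The median log2 fold change of the 44 was 0.05, against -0.03 over all genes tested. None of the interferons could be tested: Ifnb1, Ifna4, Ifna5 and Ifng were at background on all scans, and Ifnk was well above it on 1 control scan. Of the receptors and kinases, Ifngr1 had levels of 0.72 and 0.74 on the AP arrays, against 1.88 and 2.06 on the control arrays, 2.37-fold lower (adjusted p 0.00354, limma). Jak2 was 2.76-fold lower (adjusted p 0.00191), and Il10rb, a shared subunit of the receptor for interferon lambda, was 1.63-fold lower (adjusted p 0.0114), and both calls were lost with normexp. Jak2 was well above background on 1 AP scan and on all 3 control scans. Jak1 had levels of 2.05 and 1.67 on the AP arrays, against 0.76 and 0.96 on the control arrays (log2 fold change 1.00 ± 0.18 SE, adjusted p 0.0169 by limma), and did not pass the threshold without scaling. Ifnar1 and Ifngr2 did not give enough signal to be tested.

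Of 6 other STAT and IRF factors tested, 3 were higher, 1 was lower and 2 did not pass. Stat3, which carries signals of the interleukin 6 family, was 2.58-fold lower (adjusted p 0.00195). Irf4, a factor of lymphocytes and plasma cells, was at least 13.3-fold higher (adjusted p 0.0038) and was well above background on no control scan. Irf3, which the RNA and DNA sensors activate, was 1.94-fold higher (adjusted p 0.00958), with a value of -0.00 on the log2 scale without scaling. Irf5 did not pass the threshold (adjusted p 0.982, limma), and Irf2 was at background on all scans.

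Among 9 genes of sensing and relay, 3 were higher, 1 was lower and 5 did not pass, while without scaling none was higher and 5 were lower. Sting1, which relays the detection of cytoplasmic DNA, had levels of 4.60 and 4.93 on the AP arrays, against 3.55 and 3.27 on the control arrays, 2.56-fold higher (adjusted p 0.00814, limma), and did not pass without scaling (adjusted p 0.116). Tlr3, the endosomal receptor for double-stranded RNA, and Ikbke, a kinase that activates Irf3, were 1.57-fold and 1.53-fold higher (adjusted p 0.0159 and 0.0453), with negative values without scaling, and Myd88, the adaptor of most Toll-like receptors, was 2.37-fold lower (adjusted p 0.00268). Tlr3 was near background in AP: it was well above background on 1 AP scan and on all 3 control scans. Of 5 inhibitors, 3 were higher and 1 was lower. Socs1, which blocks the Jak kinases, was 2.32-fold higher (adjusted p 0.00507, and 0.125 without scaling), the phosphatase Ptpn6 was 3.04-fold higher (adjusted p 0.00192) and Pias1 was 1.69-fold higher (adjusted p 0.00615, negative without scaling), while the phosphatase Ptpn2 was 1.74-fold lower (adjusted p 0.00714).

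Of 20 other interferon-induced genes tested, 8 were higher, 11 were lower and 1 did not pass. These are 40% higher and 55% lower, against 24.1% and 31.9% of all genes tested. Psmb9 and Psmb8, subunits of the immunoproteasome that cuts peptides for MHC class I, were 3.61-fold and 1.77-fold higher (adjusted p 0.00116 and 0.00736 by limma), and Psmb8 had a negative value without scaling. Apol3l1, listed under its synonym Apol3, was 2.94-fold higher (adjusted p 0.0045, and 0.0575 without scaling), and Ciita, the master activator of MHC class II genes, was 1.79-fold higher (adjusted p 0.00901, negative without scaling). Igtp, an immunity-related GTPase, was 6.92-fold lower (adjusted p 0.000879), and Ifi47, another such GTPase, was 2.71-fold lower (adjusted p 0.00185). Ube2l6, the conjugating enzyme for Isg15, was 3.40-fold lower (adjusted p 0.00138, and 0.159 with normexp), and the secreted glycoprotein Lgals3bp was 2.88-fold lower (adjusted p 0.00173). Without scaling, 1 of the 20 was higher and 13 were lower.

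Markers of other cell types moved in both directions beside these genes. Of 8 T cell markers tested, 7 were higher in AP, and Cd5 passed the threshold below 0 (adjusted p 0.0466, limma) with no fold to give, since its control signal lay under the floor of the AP arrays. Their summed linear signal, in multiples of the 75th percentile, was 40.2 and 41.9 on the AP arrays, against 4.42 and 3.66 on the control arrays. Cd4 was at background on all scans. All 5 B and plasma cell markers tested were higher, with sums of 17.4 and 17.4 on the AP arrays, against 0.763 and 0.661 on the control arrays, and Cd79b and Tnfrsf17 were at background on every control scan. Of 5 neutrophil markers tested, S100a8, Csf3r and Slpi were lower, Ncf1 was higher (log2 fold change 1.22, adjusted p 0.0032 by limma, not past the threshold without scaling) and Cxcr2 did not pass, with sums of 1.35 and 2.51 on the AP arrays, against 98.6 and 117 on the control arrays. Most of each control sum was Slpi, an antiprotease that epithelium also makes, with levels of -0.71 and -0.55 on the AP arrays, against 6.36 and 6.64 on the control arrays. S100a8, a calcium-binding protein abundant in neutrophils, was at least 90.7-fold lower (adjusted p 0.00067, limma), and it and Csf3r were at background on every AP scan. Of 7 macrophage markers tested, 2 were higher, 2 were lower and 3 did not pass. Of 2 tested markers of plasmacytoid dendritic cells, Spib was 33.6-fold higher (adjusted p 0.000688, limma) and Tcf4 did not pass. Spib was well above background on 1 control scan, and Tcf4 on no AP scan. Markers of red blood cells were lower for 4 of 4 genes, with sums of 28.0 and 28.6 on the AP arrays, against 635 and 733 on the control arrays. Markers of fibroblasts were lower for 5 of 5 genes, with a median of -2.12, of adipocytes for 3 of 4, of duct cells for 2 of 3 and of endothelium for the 1 tested. Acinar cell markers were higher for 6 of 7, but without scaling none was higher and 1 was lower, and all 7 acinar markers were well above background on every scan of both groups. The part of these cell types in the changes of the interferon-stimulated genes was not tested.

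**Figure D5:**
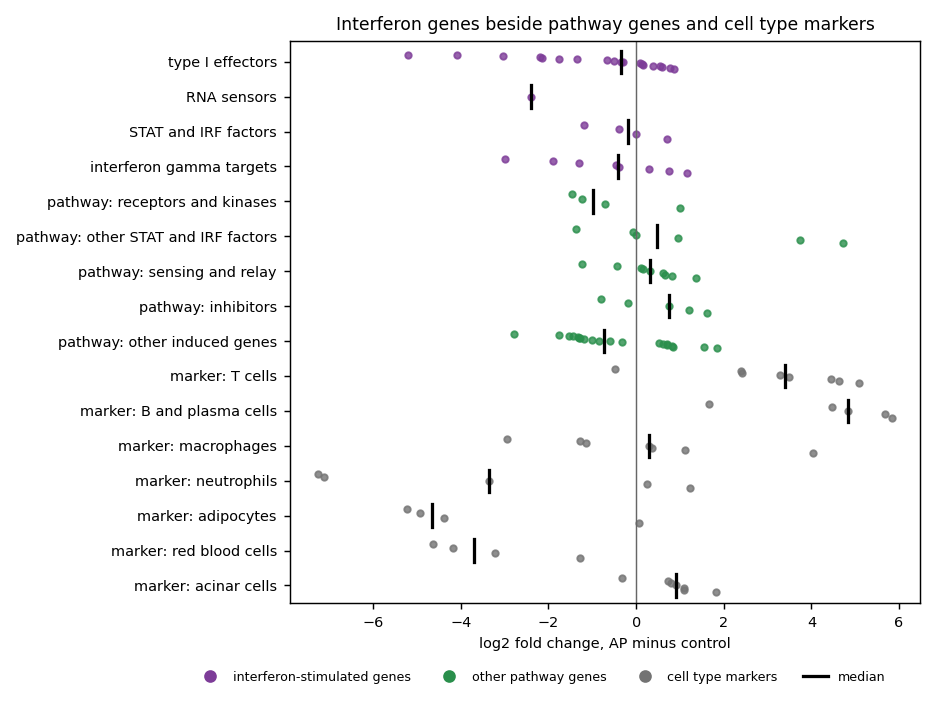
Log2 fold change, AP minus control, of each tested gene (points) and the median of its list (bars) for the 4 classes of interferon-stimulated genes, 5 lists of other pathway genes and 7 lists of cell type markers. The interferon-stimulated genes spread from -5.20 to 1.16. All tested markers of B and plasma cells lay above 0. Those of neutrophils ran from -7.25 to 1.22, and 3 of 5 passed the threshold as lower.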

How the data were processed

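RNA of rat pancreas was hybridised to 1-colour Agilent arrays; ribosomal RNA was removed and the cRNA was random-primed and labelled with Cy3, per the labels' protocols. The deposited scanner files give spot intensity after background subtraction, read by Agilent Feature Extraction 11.0.1.1, per the submitters' processing notes, with no scaling between arrays. The deposited normalized table holds log2 values; which tool the authors used for it is not stated.

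Spots of 1 probe were averaged on the log2 scale, after control spots and outlier spots were left out, and the 75th percentile of each array was subtracted. Deviations of single spots from their probe mean, over 848 probes with signal above 200, correlated at 0.991 between control scans 2 and 3 and at 0.988 between AP scans 2 and 3, and at 0.195 to 0.721 in other pairs. Pairs above 0.9 were averaged as 1 array, which leaves 2 arrays per group where the labels number 3 replicates. A probe was kept if at least 3 of the 6 scans placed it well above background, and 13220 had a fit. The groups were tested two-sided in limma 3.58.1 (R 4.3.3), which left 2 residual degrees of freedom. Nothing states that arrays came from separate animals beyond 1 extraction per rat, so p-values measure the spread between these arrays. The fit code was also run on data simulated from its own variance model, and the outcome is not reported here. The number of arrays limits precision, and no spot was saturated.

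A bound compares the brighter group's mean with the dimmer group's mean of the higher of the probe's own signal and the array's floor, the weakest signal still marked as well above background. Probes were named through RefSeq accessions in a GRCr8 table. A gene with several probes was represented by its brightest tested probe. Cross-hybridisation between relatives (Ifit, Ifitm, Oas, Gbp) was not checked. Motifs were searched with Python 3.11.15, pandas 2.3.3 and numpy 2.4.6, and figures were drawn with matplotlib 3.10.9. The members and lists were chosen with earlier results of these data known. All members could be named, with the measured receptors, kinases and factors, and up to 4 genes each way from other lists. Some measured genes of the pathway and marker lists are counted but not reported here by name.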

Additional observations from a re-analysis of the deposited data

How the results depend on the processing

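The 32 genes were refitted in 17 alternative settings, 1 of them (crossed replicate numbers) chosen after seeing the data. Over single genes, 435 values kept direction and side of the threshold, 46 lost the call, 30 gained one and 25 changed sign, 12 of them without scaling and 7 with normexp. The median of the 32 genes, -0.39, was -1.35 without scaling, -0.23 with the normexp background and -0.32 over genes well above background on all scans, and -0.53 to -0.36 without 1 array, the lowest without AP replicate 2. The count of higher genes, 5, was 0 without scaling (limma, and 0 at an unadjusted p below 0.05, where 8.97% of all called probes were higher), 1 with normexp (Ifit1, none of the 5), 8 with 6 scans as separate samples and 2 to 4 without 1 array: 2 without control replicate 1, 3 without control replicate 2, 3 without AP replicate 2 and 4 without AP replicate 1. The count of lower genes, 15, was 25 without scaling and 11 to 12 without 1 array. Without scaling the log2 fold changes turned to -0.86 for Eif2ak2, -0.42 for Ifitm1, -0.25 for Irf1, -0.95 for Irf9, -0.37 for Mx2, -0.79 for Oas1b, -0.66 for Tap1, -0.83 for Trim25, -0.57 for Ifi44, -0.18 for Ifit1, -0.20 for Tapbp and -0.0933 for Usp18, since the 75th percentile itself was 0.96 lower in AP. With normexp they turned to 0.0667 for Bst2, 0.0593 for Ifih1, 0.0087 for Dtx3l, -0.20 for Eif2ak2, -0.28 for Irf9, -0.0749 for Tap1 and -0.14 for Trim25; the cause was not tested. Without 1 array, each time with 1 array left in that group, sign changes gave ranges of -0.0356 to 0.22 for Eif2ak2, -1.24 to 2.79 for Ifit1, -0.0674 to 0.0799 for Irf9, -0.0547 to 0.38 for Oas1b and -0.0042 to 0.26 for Trim25. Of all called probes, 48.8% were higher in the fit reported, 35.2% with normexp and 66.9% with no filter on dim probes. Without scaling, 8564 of 13220 probes were called, 768 of them as higher. Called probes numbered 7282 in the fit reported, 2659 with normexp and 4641 without control replicate 2. With the replicate number as a block, 3 genes were higher and 11 lower; same-numbered arrays deviated in opposite directions (r = -0.214 over 13149 probes), and with crossed numbers 6 were higher and 14 lower. With scan session as a block 6 genes were higher and 18 lower. That fit counts the 6 scans as separate samples, although scans 2 and 3 of each group are 1 array. In the first session alone 6 genes were higher and 15 lower, and the second session holds 1 scan a group and allows no test. The samples share only a number, so the block has no basis in the labels. B2m passed the threshold as lower in 8 settings, Stat2 in 6, and Tapbp as higher in 6. Signal over background limits Rsad2, Isg15, Ifit1, Ifit2, Ifi44, Ifih1, Bst2 and Cxcl11, which were not well above background on at least 1 AP scan.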
